A study of Mus musculus with 4 samples.

Results

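Histone deacetylases, the corepressor scaffold NCoR1 and the acetyltransferase p300 write and erase histone acetylation, and chromatin accessibility around their own genes was measured here by ATAC-seq, in which the Tn5 transposase inserts sequencing adapters into open DNA. The 9 genes were Hdac1, Hdac2, Hdac3, Hdac4, Hdac5, Hdac7, Hdac9, Ncor1 and Ep300, the gene of p300. Peaks from the 4 libraries were merged into 60710 open regions wherever they overlapped by at least 1 bp. A region belonged to one of these genes when the deposited annotation of its highest peak named that gene, which is the gene with the nearest transcription start site (TSS). The rule found 73 regions, and each of the 9 genes had at least 1.

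The cells were bone marrow-derived macrophages (BMDMs) of wild-type (WT) mice on the C57BL/6 background, aged 8 to 12 weeks and carrying no modified allele. Marrow cells of both groups were differentiated for 6 days in L929 supernatant, which supplies the macrophage growth factor M-CSF. The control group received no IL-4, and the IL-4 group received IL-4 at 20 ng/ml for 1 h. Each group had 2 libraries. The methods call them biological replicates, but the labels do not tie the libraries to individual mice, so the p-values refer to libraries and not to mice. BMDMs are a culture grown from marrow and not a sorted population. Of 8 macrophage markers, Cd68, Lyz2, Mertk and Fcgr1 had a promoter peak in all 4 libraries, with heights from 5.74 to 20.05, whereas Adgre1, Csf1r, Itgam and Spi1 had none in any library. None of the 15 markers of lymphoid, neutrophil, erythroid, epithelial, hepatic or stromal cells had one.

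The libraries held from 39462 to 45250 nuclear peaks. IL-4 replicate 2 had the fewest peaks and the lowest median height, 6.41 against 7.46 to 8.04 in the other libraries. Peak height is the deposited peak score, read as −log10 of the q-value with which the peak caller separated a peak from the background of its own library. It is a measure of evidence that grows with sequencing depth, it is not a read count, and the depth is unknown. ATAC-seq on a culture cannot tell fewer cells with an open site apart from a less open site in each cell.

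Acetylated lysines on histone tails are found at active promoters and enhancers. Class I deacetylases such as HDAC1, HDAC2 and HDAC3 are nuclear enzymes that act within large corepressor complexes. HDAC1 and HDAC2 work in the Sin3, NuRD and CoREST complexes, and HDAC3 is activated by binding to NCoR1 or its relative SMRT. Class IIa deacetylases, among them HDAC4, HDAC5, HDAC7 and HDAC9, have little catalytic activity of their own, shuttle between nucleus and cytoplasm under signal control and bind MEF2 transcription factors. The acetyltransferase p300 is recruited to enhancers by many transcription factors, and HDAC3 and NCoR1 are known regulators of inflammatory and IL-4-responsive genes in macrophages. IL-4 acts through STAT6, which prefers a palindrome in which TTC and GAA lie 4 bases apart.

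The sequences below show the strongest Hdac4 and Hdac7 sites, the upstream Ep300 promoter region, where both IL-4 heights were below both control heights, and examples of regions found in 1 group. All were read from the GRCm38.p6 assembly, which carries the mm10 coordinates of the files, and each is written 5′ to 3′ on the strand of its gene, with capitals on matches to the searched strings, on either strand. The strings were TTC and GAA with 4 bases (STAT6-type) or 3 bases between them, TGACTCA for AP-1, GAGGAAGT for PU.1, GGGCGG for SP and KLF factors and CCGGAAG for ETS factors, of which the PU.1 and ETS strings share the letters GGAAG. A match is a string of letters and not evidence of binding.
Ep300, 300 bases of the upstream promoter region, chr15:81585129-81585428, plus strand, with 3 GGGCGG matches: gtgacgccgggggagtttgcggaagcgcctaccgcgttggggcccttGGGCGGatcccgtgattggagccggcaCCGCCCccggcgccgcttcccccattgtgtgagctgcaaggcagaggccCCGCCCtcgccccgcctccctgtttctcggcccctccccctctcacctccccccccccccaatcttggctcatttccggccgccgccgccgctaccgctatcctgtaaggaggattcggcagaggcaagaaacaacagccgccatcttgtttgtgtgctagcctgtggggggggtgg
Hdac4, 250 bases before the curated RefSeq start, the last 5 of which lie in an exon of model transcripts, chr1:92180342-92180591, minus strand, with 4 GGGCGG matches and 1 STAT6-type match: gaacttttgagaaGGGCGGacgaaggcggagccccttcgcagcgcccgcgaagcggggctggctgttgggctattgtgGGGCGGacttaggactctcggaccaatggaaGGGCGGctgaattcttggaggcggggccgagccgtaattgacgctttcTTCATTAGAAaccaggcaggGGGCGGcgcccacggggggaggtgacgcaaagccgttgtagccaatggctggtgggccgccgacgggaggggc
Hdac4, 300 bases of the intron 2 region, chr1:92052287-92052586, minus strand, with no match: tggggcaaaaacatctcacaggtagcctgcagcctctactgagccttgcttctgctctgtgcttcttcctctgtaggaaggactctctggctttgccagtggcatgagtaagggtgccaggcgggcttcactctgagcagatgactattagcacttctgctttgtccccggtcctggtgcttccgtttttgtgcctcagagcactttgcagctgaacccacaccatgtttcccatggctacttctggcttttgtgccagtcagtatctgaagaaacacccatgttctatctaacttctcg
Hdac4, control-only region, chr1:92195862-92196013, minus strand, with 1 AP-1 match: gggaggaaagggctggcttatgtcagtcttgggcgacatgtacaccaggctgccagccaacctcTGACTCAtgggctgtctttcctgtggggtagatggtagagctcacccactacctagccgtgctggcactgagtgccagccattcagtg
Hdac7, 300 bases of the intron 1 region, chr15:97825101-97825400, minus strand, with 1 AP-1 match: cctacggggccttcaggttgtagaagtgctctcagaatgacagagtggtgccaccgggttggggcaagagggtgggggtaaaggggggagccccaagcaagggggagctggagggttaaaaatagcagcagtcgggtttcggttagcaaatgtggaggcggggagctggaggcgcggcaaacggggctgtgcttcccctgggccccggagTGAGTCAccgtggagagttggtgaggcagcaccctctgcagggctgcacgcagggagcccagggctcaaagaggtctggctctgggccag
Hdac9, IL-4-only region, chr12:34847458-34847558, minus strand, with 1 PU.1 match: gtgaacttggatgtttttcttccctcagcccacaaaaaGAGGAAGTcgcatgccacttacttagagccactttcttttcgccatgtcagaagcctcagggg
Hdac9, control-only region, chr12:34787517-34787646, minus strand, with 1 PU.1 match: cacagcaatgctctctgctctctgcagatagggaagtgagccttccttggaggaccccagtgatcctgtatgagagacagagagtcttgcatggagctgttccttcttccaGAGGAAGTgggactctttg

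The 73 regions were spread unevenly over the genes. Hdac9 had 29 and Hdac4 had 18, and these 2 genes together held 47 of the 73, or 64.4%. Hdac7 had 10, Hdac5 and Ep300 had 5 each, Hdac2 had 3, and Hdac1, Hdac3 and Ncor1 had 1 each. Of the 16244 genes with a region, 27 had more regions than Hdac9 and 211 had more than Hdac4. Gene length varied too. Hdac9 spans 869516 bp and held 3.34 regions per 100 kb, Hdac4 spans 266924 bp with 4.12 inside it, and Hdac5 (34426 bp) and Hdac7 (51842 bp) held 14.5 and 15.4 per 100 kb. Ncor1, with 141752 bp and a single region, had 0.705. These densities count only regions assigned to the gene, and leave out any inside it that were assigned to another gene.

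**Figure D1:**
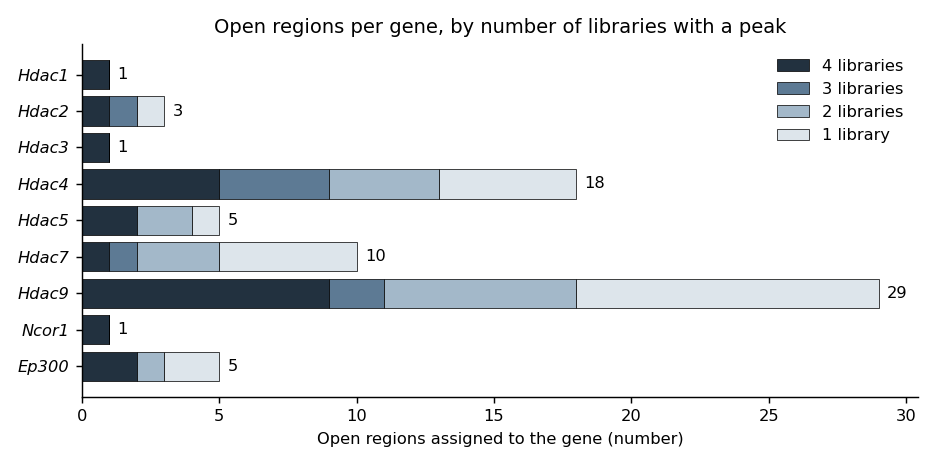
Number of open regions assigned to each gene (horizontal axis), with bar segments for regions that had a peak in 4, 3, 2 or 1 of the libraries. Hdac9 (29 regions) and Hdac4 (18) carry most of them, and most Hdac7 segments are pale because 8 of its 10 regions had a peak in 1 or 2 libraries.

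Most of these regions lay away from promoters. By the deposited annotation 46 were intronic, 15 intergenic, 2 exonic, 2 in a 5′ untranslated region and 8 at a promoter (promoter-TSS). Each of the 8 promoter regions had a peak in all 4 libraries, beside 69.4% of all 11416 promoter regions, whereas 11 of the 46 intronic regions did (23.9%, beside 34.9% of all intronic regions). Over all annotations 23 of 73 regions (31.5%) had a peak in every library, beside 41.9% of all regions. A further 8 had a peak in 3 libraries, 17 in 2 and 25 in 1. Peaks found in 1 library were low, as 22 of those 25 heights were under the median of all peaks, 7.37.

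The share of each library's peaks that fell on these genes was compared first, since a share is relative to the number of peaks called. Control replicates 1 and 2 had 54 and 46 such peaks, which were 0.119% and 0.11% of their peaks. IL-4 replicates 1 and 2 had 49 and 37, or 0.117% and 0.0938%. The IL-4 values lay on both sides of the lower control value, so the groups overlapped. The means were 0.115% ± 0.0067 (SD, n = 2) in control and 0.105% ± 0.016 (SD, n = 2) after IL-4, a difference of −0.00934 percentage points with an exact two-sided permutation p of 0.667, and 2 libraries against 2 allow no p under 0.333. Without IL-4 replicate 2 the difference was 0.00215 percentage points, in the other direction. The shares had the same order over the libraries as the numbers of all peaks called. Those numbers were 45250 and 41885 in control replicates 1 and 2 and 41978 and 39462 in IL-4 replicates 1 and 2. A dependence of the share on the number of peaks was not tested.

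Change after IL-4 was tested at the 23 regions that were present in every library. None of the 23 passed the threshold of an adjusted p under 0.05 in either direction with limma on quantile-normalised log2 heights, adjusted by Benjamini-Hochberg over all 25442 regions found in every library. The lowest adjusted p among them was 0.586. The limma standard errors (SE) and p-values use a variance drawn toward a trend over all 25442 regions. They therefore do not measure the spread between libraries at a single region alone. Across all 25442 regions 4 were higher (0.0157%) and 2 lower (0.00786%), so almost no region of any gene passed. At an unadjusted p under 0.05, 0 of the 23 were higher and 2 were lower (8.7%), where 4.12% and 4.15% of all regions were higher and lower. Both IL-4 libraries lay above both control libraries in normalised height at 5 of 23 regions, 21.7% beside 19.2% of all regions, and below them at 4 of 23, 17.4% beside 18.6%. The shares of regions without overlap were near the background, and the count of 2 is too small to set apart from it.

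The median log2 change of the 23 regions was −0.05, with 12 negative and 11 positive values, beside −0.000648 over all regions. The SD over the 23 regions was 0.45, and over all regions 0.5. Standard errors of single regions ran from 0.24 to 0.55, so only large changes at single regions could be told from 0. The sign of the median was not stable. It was 0.0462 with median centring instead of quantile normalisation, 0.156 over the 14 regions within 50 kb of a TSS, and 0.0955, 0.0418 and 0.0652 without IL-4 replicate 2, control replicate 1 or control replicate 2.

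**Figure D2:**
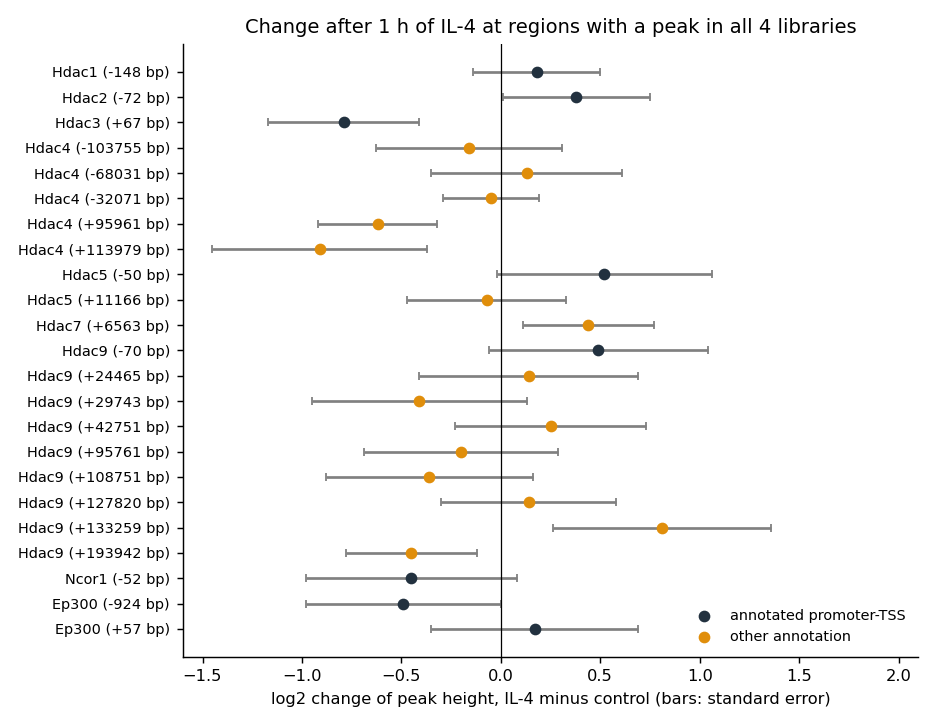
The log2 change of peak height, IL-4 minus control (horizontal axis), at the 23 regions present in every library, each named by gene and by its deposited distance from the TSS. Points are limma estimates from 2 libraries per group and bars are standard errors. Values run from −0.91 at the Hdac4 region 113979 bp downstream to 0.81 at the Hdac9 region 133259 bp downstream, and most bars reach 0.

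Among the class I deacetylases each gene had 1 region over its start, annotated as promoter. The Hdac3 promoter region (chr18:37954666-37955133, mm10, 67 bp downstream of the TSS) was 1 of the 2 regions with an unadjusted limma p under 0.05. Its heights were 16.01 and 21.81 in control replicates 1 and 2 and 10.63 and 8.07 in IL-4 replicates 1 and 2. Both control libraries were above both IL-4 libraries and the groups did not overlap, an order that 18.6% of all regions had in normalised height. The log2 change was −0.79 with an SE of 0.38 and an unadjusted limma p of 0.0429, while the adjusted p of 0.586 did not pass the threshold. The estimate was negative under all 13 alternatives, from −1.13 without control replicate 1 to −0.47 without control replicate 2, where the region split and its larger tested piece was used. A RefSeq model transcript of Rell2 also starts inside this region, so the site cannot be assigned to Hdac3 alone.

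The deposited heights of the Hdac1 and Hdac2 promoters showed no such separation. The heights at Hdac1 (chr4:129542583-129542940) were 16.61 and 17.81 in control and 22.09 and 12.90 after IL-4. IL-4 replicate 1 was the highest and IL-4 replicate 2 the lowest of the 4, and the log2 change was 0.18 with an SE of 0.32 and an adjusted p of 0.932. Without IL-4 replicate 1 it was −0.04, without IL-4 replicate 2 0.40, and without control replicates 1 and 2 in turn 0.04 and 0.32. At Hdac2 (chr10:36974141-36975148, the broadest of the start regions) heights were 12.34 and 12.95 in control and 16.17 and 12.25 after IL-4, with a log2 change of 0.38, an SE of 0.37 and an adjusted p of 0.852. It was 0.25 without control replicate 1. Deposited heights overlapped at Hdac2, whereas after quantile normalisation both IL-4 values, 15.62 and 14.74, lay above the control values of 10.63 and 12.78. The other notable Hdac2 region, 56459 bp upstream of the TSS, had no peak in control replicate 1 and heights of 7.46, 13.54 and 3.73 in control replicate 2 and IL-4 replicates 1 and 2.

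**Figure D3:**
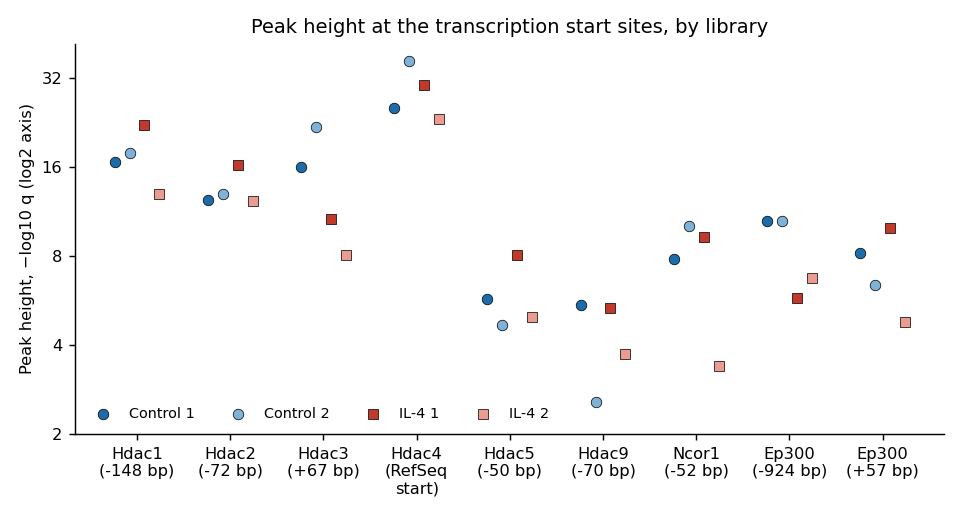
Peak height, −log10 q on a log2 axis, at the regions over or annotated to the start of each gene. Circles are the control libraries and squares the IL-4 libraries, and numbers in brackets are deposited distances from the TSS. Both control points lie above both IL-4 points at Hdac3 and at the upstream Ep300 region, and the ranges of the 2 groups overlap at the other starts.

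Ncor1 encodes the scaffold that holds HDAC3, and its only region (chr11:62457235-62457478) covered the start of 1 of its curated RefSeq transcripts. No region lay over the start shared by its other 2 curated transcripts, at position 62438515 of chromosome 11, which was 18720 bp from the nearest region. Heights at the promoter were 7.83 and 10.08 in control and 9.27 and 3.38 after IL-4. IL-4 replicate 2 alone was low, with IL-4 replicate 1 between the control values. The log2 change was −0.45 with an SE of 0.53 and an adjusted p of 0.882, and it was 0.15 without IL-4 replicate 2, −1.05 without IL-4 replicate 1, and −0.74 and −0.18 without control replicates 1 and 2 in turn. The Ncor1 window was also the only 1 of the 8 promoter windows with the ETS string CCGGAAG (12.5%, beside 14% of all promoter windows).

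Ep300 had 2 promoter regions on chromosome 15. The upstream region (chr15:81585052-81585504, 924 bp before the TSS, singled out after its values were seen) had heights of 10.52 and 10.49 in control and 5.75 and 6.72 after IL-4. Both IL-4 values were below both control values, before and after normalisation. The log2 change was −0.49 with an SE of 0.49 and an adjusted p of 0.855, so the difference was no larger than its limma SE. It was −0.21 without IL-4 replicate 1 and −0.77 without IL-4 replicate 2. The region over the start (chr15:81586061-81586518) gave no such order, with heights of 8.19 and 6.35 in control and 9.93 and 4.79 after IL-4 and a log2 change of 0.17 (SE 0.52, adjusted p 0.96) that ran from 0.08 without control replicate 2 to 0.46 and 0.54 without IL-4 replicate 1 or 2. Its central window held the only STAT6-type match among the 8 promoter windows (12.5%, beside 3.16% of all promoter windows). The central window of the Hdac4 start region, which is not among the 8, held none. The STAT6-type match in the bases printed before the Hdac4 start lies outside that window. The exonic Ep300 region, over exon 4 of 31 (chr15:81610406-81610571), had a peak only in the control libraries, with heights of 3.17 and 8.78. The remaining 2 Ep300 regions had a single low peak each, of 4.38 in control replicate 1 and 1.86 in IL-4 replicate 1.

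The class IIa genes held 62 of the 73 regions. Hdac4 had the highest peak of all 9 genes, in the region chr1:92180214-92180977. The deposited annotation calls it intergenic, 32071 bp upstream of the TSS, but the curated Hdac4 transcript of the GRCm38.p6 annotation starts inside it, at position 92180341 of chromosome 1, and the 250 bases before that start are printed above. Its heights of 25.27 and 36.41 in control and 30.26 and 23.21 after IL-4 overlapped between the groups. They exceeded 93.9% to 99.3% of the peaks of the same library. The log2 change was −0.05 with an SE of 0.24 and an adjusted p of 0.978, and its sign turned with median centring (0.05) and without control replicate 2 (0.30), while it was −0.41 without control replicate 1.

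The second strongest Hdac4 site lay in intron 2, 95961 bp downstream of the deposited TSS (chr1:92052284-92052589, printed above). The heights were 25.86 and 24.92 in control and 20.24 and 10.24 after IL-4. Here the groups did not overlap, and the gap was widest for IL-4 replicate 2. The log2 change was −0.62 with an SE of 0.30, an unadjusted limma p of 0.0424 and an adjusted p of 0.586, and over the 13 alternatives it ranged from −0.94 without IL-4 replicate 1 to −0.29 without IL-4 replicate 2. The most negative estimate over the 9 genes was also in Hdac4 intron 2, 113979 bp downstream (chr1:92034218-92034610), and rested on 1 library. Its heights were 11.09 and 11.86 in control, 11.71 in IL-4 replicate 1 and 2.44 in IL-4 replicate 2. The log2 change there was −0.91 (SE 0.54, adjusted p 0.681) and became 0.11 without IL-4 replicate 2 and −1.93 without IL-4 replicate 1.

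Hdac5 was open at its promoter (chr11:102230033-102230507), where heights were low, 5.73 and 4.68 in control and 8.05 and 4.97 after IL-4. The deposited heights overlapped, but the normalised ones, 4.94 and 4.63 against 7.85 and 6.03, did not, and the log2 change was 0.52 with an SE of 0.54 and an adjusted p of 0.859, and 0.34 without IL-4 replicate 1. The microRNA gene Mir8101 overlaps the same region. A stronger Hdac5 site in intron 2, 11166 bp downstream (chr11:102218763-102219186), had heights of 15 and 12.83 in control and 18.77 and 6.64 after IL-4. The 2 IL-4 libraries were the highest and the lowest there, with a log2 change of −0.07 (SE 0.40, adjusted p 0.983) that became 0.49 without IL-4 replicate 2 and −0.63 without IL-4 replicate 1.

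At Hdac7 no region covered any of the 4 start positions of its curated transcripts and none was annotated as promoter. The region nearest to the deposited TSS, 151 bp downstream in the 5′ untranslated region (chr15:97831558-97831675), was a peak of 4.14 in IL-4 replicate 2 alone. Neighbouring regions 356 and 674 bp downstream were single low peaks of 2.95 in IL-4 replicate 1 and 3.57 in control replicate 1. The strongest Hdac7 site was in intron 1, 6563 bp downstream (chr15:97825062-97825438, printed above), and was the only Hdac7 region found in every library. It had heights of 14.41 and 16.30 in control and 21.55 and 14.93 after IL-4. Deposited values overlapped, while the normalised IL-4 values, 20.66 and 17.83, were above the control values of 12.48 and 16.11. The log2 change was 0.44 with an SE of 0.33 and an adjusted p of 0.78, and 0.26 without control replicate 1.

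Hdac9 was the gene with the most sites and a weak promoter. The promoter region of its short transcript (chr12:34528828-34529058) had the lowest promoter heights of these genes in 3 of the 4 libraries (in IL-4 replicate 2 Ncor1 was lower), 5.44 and 2.56 in control and 5.34 and 3.73 after IL-4. They overlapped, with a log2 change of 0.49 (SE 0.55, adjusted p 0.877) that was 0.05 without control replicate 2 and 0.86 without control replicate 1. No region lay over the start of the long transcript, and the nearest, a peak of 4.38 in control replicate 1, was 7265 bp from it. The strongest Hdac9 site was deep inside the long transcript, in intron 3, 193942 bp from its start (chr12:34722862-34723427). Heights there were 24.39 and 16.88 in control and 14.11 and 11.85 after IL-4, so the groups did not overlap, and the log2 change was −0.45 with an SE of 0.33 and an adjusted p of 0.771, and −0.27 without control replicate 1. The most positive change over the 9 genes was at another intron 3 site, 133259 bp from the same start (chr12:34783682-34783923). It had heights of 5.80 and 2.76 in control and 6.12 and 6.06 after IL-4, and a log2 change of 0.81 (SE 0.55, adjusted p 0.742). The lowest of the 4 heights was that of control replicate 2, and the change was 0.38 without it and 1.20 without control replicate 1, so the size of the estimate rested on which control library was used. Hdac9 sites thus included values in both directions, with 4 negative and 5 positive changes among its 9 regions found in every library and a median of 0.14.

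**Figure D4:**
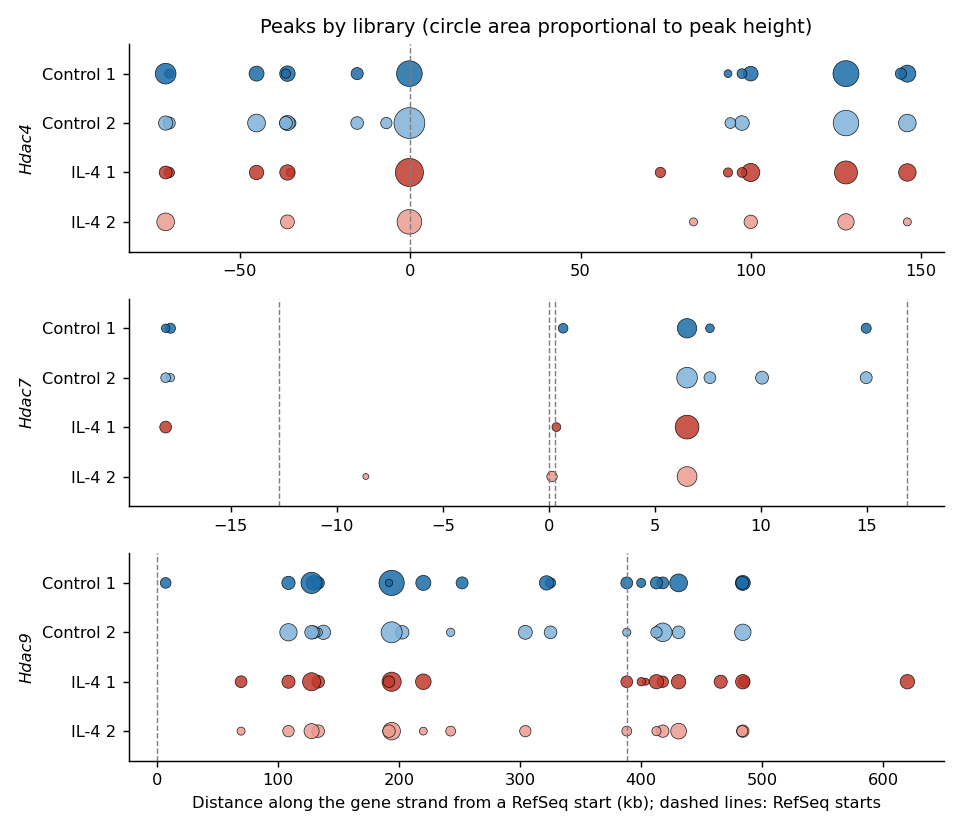
Peaks of Hdac4, Hdac7 and Hdac9 in each library (rows) by distance in kb along the gene strand from a curated RefSeq start set at 0, with other RefSeq starts as dashed lines. The area of a circle is proportional to the height of the peak. A large Hdac4 circle lies at the start in all 4 rows, no large circle lies at any Hdac7 start, and the largest Hdac9 circles lie inside the gene.

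Presence in 1 group was counted next. A region was control-only when both control libraries and neither IL-4 library had a peak, and IL-4-only in the reverse case. Of the 73 regions 8 were control-only, which is 11% beside 4.33% of all 60710 regions, and 1 was IL-4-only, which is 1.37% beside 2.53%. These are counts without a test, because 2 libraries against 2 allow no p under 0.333. The control-only regions were 3 of Hdac7, 2 of Hdac4, 2 of Hdac9 and 1 of Ep300, so 7 of the 8 belonged to class IIa genes, which held 62 of the 73 regions (84.9%). None was at a promoter, where 2.03% of all regions were control-only. By annotation, 4 of 46 intronic regions were control-only (8.7%, beside 5.06% of all intronic regions). Of the 15 intergenic regions 3 were (20%, beside 4.71%), and of the 2 exonic regions 1 was (50%, beside 3.35%). The 8 control-only regions were low peaks, since 14 of their 16 heights were under the median of all peaks. Among peaks above that median 1 of 32 regions was control-only, 3.12% beside 5.85% of all regions. None of the 8 had both control heights above the median, so each had to leave the class under that filter. The filter also counts lower IL-4 peaks as absent, so it cannot show whether the larger share holds for higher peaks.

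The 3 control-only regions of Hdac7 had heights of 3.89 and 5.49 (1964 bp before the most downstream of its starts), 3.86 and 2.56 (5063 bp before the most upstream) and 2.92 and 5.31 (7614 bp after the deposited TSS) in control replicates 1 and 2. Those of Hdac4 had 5.65 and 6.18 at 47528 bp upstream of the deposited TSS, and 3.39 and 6.57 at 68429 bp upstream of it. The printed sequence of the former holds the AP-1 string. From the curated Hdac4 start these regions lay 15596 and 36510 bp away. The 2 Hdac9 regions, both in intron 3 of the long transcript, had 4.0 and 6.18 (chr12:34591796-34591997) and 8.32 and 6.35 (chr12:34787517-34787646). The last of these was the higher of the pair. It holds the PU.1 string and overlaps an exon of the predicted gene Gm46347.

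The single IL-4-only region lay in intron 2 of the long Hdac9 transcript, 69588 bp from its start (chr12:34847458-34847558). Its heights were 5.34 and 2.49 in IL-4 replicates 1 and 2, both below the median of all peaks. Its central window holds the PU.1 string and TTC and GAA spaced by 3 bases, the latter outside the bases printed above, and no STAT6-type match, which 29.9% of all IL-4-only windows held. Both counts moved when 1 library was left out, partly because 1 peak in place of 2 was then enough in that group. When IL-4 replicate 2 was left out, 10 of 70 regions were IL-4-only (14.3%, beside 9.97% of all regions) and 8 control-only (11.4%, beside 7.72%). Without IL-4 replicate 1 the counts were 4 of 65 (6.15%, beside 10.2%) and 12 of 65 (18.5%, beside 10.9%). Leaving out control replicate 1 gave 4 of 66 IL-4-only (6.06%, beside 5.9%) and 14 control-only (21.2%, beside 12.4%). Leaving out control replicate 2 gave 2 of 71 (2.82%, beside 4.59%) and 16 (22.5%, beside 14.9%).

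The windows of 200 bp at the centres of the regions were searched for the same strings. GGGCGG was in 6 of the 8 promoter windows of these genes (75%), beside 57.6% of all promoter windows, and the median GC content of the 8 was 69.8%, beside 64.5%. The Hdac9 promoter window had 48% GC and none of the strings, and the window over the Ep300 start also lacked GGGCGG. Among the 65 windows outside promoters the AP-1 string was in 10 (15.4%, beside 19.9% of all such windows), the PU.1 string in 5 (7.69%, beside 10.6%) and the STAT6-type palindrome in 4 (6.15%, beside 7.09%). TTC and GAA spaced by 3 bases, a form other STAT proteins bind, were in 2 (3.08%, beside 6.35%). None of the 8 control-only windows held either palindrome. Of all control-only windows, 2.28% held the form with 4 bases between TTC and GAA and 4.07% the form with 3. All of these shares are descriptions of small sets.

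For 7 of the genes the promoter region with the most similar normalised log2 heights over the 4 libraries was looked up among 7912 promoter regions. The nearest profiles were those of Ctif for Hdac1, Fth1 for Hdac2, Psma1 for Hdac3, Apopt1 for Hdac5, Prickle1 for Hdac9, Exosc4 for Ncor1 and Irf2bpl for Ep300. The Euclidean distances ran from 0.085 for Hdac2 to 0.32 for Hdac9, over 4 libraries that share 2 conditions. Hdac4 and Hdac7 have no annotated promoter region and were not searched.

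Other genes of the acetylation machinery were counted in the same way. Of 46 listed genes, 44 had a region, with Sirt2 and Mbd3 the exceptions. They held 217 regions. All 4 libraries had a peak at 106 of them, 5 were IL-4-only (2.3%, beside 2.53% of all regions) and 5 control-only (2.3%, beside 4.33%). With limma 0 of the 106 passed an adjusted p under 0.05 in either direction, and at an unadjusted p under 0.05 0 were higher and 4 lower (3.77%, beside 4.15% of all regions). The 4 were 1 region each of the other deacetylases and sirtuins, the other NCoR and SMRT subunits, the Sin3, NuRD and CoREST subunits and the MEF2 partners of class IIa deacetylases, and none came from the acetyltransferases or the acetyl-lysine readers. One lay within 10 kb of its TSS, in an intron of Chd4, the ATPase of the NuRD complex (chr6:125099405-125099583). It had heights of 9.53 and 7.29 in control and 7.16 and 1.33 after IL-4, with a log2 change of −1.18 (SE 0.58, adjusted p 0.594). The IL-4 replicate 2 height was close to the lowest of any peak, 1.3, while IL-4 replicate 1 was near control replicate 2. The median log2 change over the 106 was 0.05, close to that over all regions.

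IL-4 replicate 2 had the lowest deposited height at 14 of the 23 regions found in every library (60.9%), beside 49% of all such regions, and its part in each difference was not tested beyond the values without it given here.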

How the data were processed

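Nuclei of control and IL-4-treated WT BMDMs were tagmented and sequenced in 4 libraries. Per the methods and the submitters' processing notes, the authors aligned reads to mm10 with BWA 0.7.10, used SAMtools 0.1.19, called peaks in each library on its own with MACS2 2.0.10, removed blacklisted regions and annotated peaks with HOMER 4.2 against RefSeq. Replicates were not pooled. The Tn5 shift and the handling of duplicate and mitochondrial reads are not given in the sources used here. The deposited peak scores were taken to be −log10 q-values, a unit that no label states. The methods name a q of 0.01 or less, yet 1262 nuclear peaks score under 2. The files hold no reads or counts, so no interval from depth could be given, and the read-based test of the study was not run.

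Nuclear peaks sharing 1 bp or more were joined (bedtools 2.31.1 gave the same 60710 regions), and each region took the annotation of its highest peak. For the 25442 regions present in every library, log2 heights were quantile-normalised and tested with limma 3.58.1 (R 4.3.3, eBayes with trend, two-sided), with Benjamini-Hochberg adjustment over all of them and a threshold of 0.05. Regions found in fewer libraries were not in that fit, and a peak that is not listed is not a height of 0. An exact permutation test over libraries served for the share of peaks. Described for each gene were its promoter region or the one nearest to the TSS, its highest other region, regions found in 1 group only and regions with an unadjusted p under 0.05, with the 3 largest and the 3 smallest changes overall. The genes, lists, strings and alternatives were chosen with earlier results of these data known. Starts, exons and sequences came from RefSeq on GRCm38.p6, where 7 of the 9 genes have an entry in the promoter table used. Hdac1 and Hdac3 sequences are not shown.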

Additional observations from a re-analysis of the deposited data

How the results depend on the processing

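Counts of regions past an adjusted p under 0.05 were 0 in both directions under every alternative run: a replicate block, no variance trend, median centring, log2(height + 1), regions found in at least 2 libraries, peaks merged within 500 bp, an overlap of at least 50 bp, heights of at least 2, heights above the pooled median, regions within 50 kb of a TSS, and each library left out. The median log2 change moved to 0.0462 with median centring and to 0.156 within 50 kb, and ranged from −0.0993 to 0.0955 with 1 library left out. IL-4-only regions numbered 0 for heights above the median and 0 within 50 kb, and from 2 to 10 with 1 library left out. Control-only regions numbered 1 for heights above the median and 5 within 50 kb, and from 8 to 16 with 1 library left out. Requiring 1 peak in place of 2 in a group raises these counts by construction. The difference in the share of peaks ranged from −0.0208 to 0.00215 percentage points with 1 library left out, with exact permutation p-values from 0.333 to 1. Across 15 named regions with a fitted change, 180 alternative values kept the sign and 7 did not: Hdac4 at its RefSeq start 0.05 with median centring, 0.30 without control replicate 2 and 0.00 without IL-4 replicate 2, the Hdac1 promoter −0.04 without IL-4 replicate 1, and, without IL-4 replicate 2, 0.11 at the Hdac4 intron 2 region 113979 bp downstream, 0.15 at Ncor1 and 0.49 at the Hdac5 intron 2 region. Leaving out 1 library at a time moved these from −0.41 to 0.30 at the Hdac4 start, from −0.04 to 0.40 at Hdac1, from −1.93 to 0.11 at the Hdac4 intron 2 region, from −1.05 to 0.15 at Ncor1 and from −0.63 to 0.49 at the Hdac5 region, and the cause was not tested.

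Replicate numbers 1 and 2 are shared by the groups, but no label makes them a batch, and deviations of same-numbered libraries did not move together over the 25442 regions (Pearson r across regions 0.00677). With the replicate block the median log2 change was −0.0503, with 0 regions higher and 0 lower. It changed no call.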
